A study of Mus musculus with 4 samples.

Results

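The 8 genes described here encode signals that thymic epithelial cells (TECs) give to developing T cells: Il7, Kitl, Il15, Il15ra, Tslp, Flt3l, Tgfb1 and Tgfb2. They were matched by symbol among the 31053 genes of the deposited matrices, and all 8 had UMIs (unique molecular identifiers, each standing for 1 captured mRNA molecule) in kept cells of all 4 libraries. The droplet-based scRNA-seq libraries were made from sorted EPCAM+, CD45-, TER119- thymus cells of C57BL/6 mice 6 weeks of age, 2 weeks after 1 subcutaneous injection. WT-Control mice received control IgG, and WT-RANKL-Ab mice received an antibody that neutralises RANKL (5 mg per kg), the ligand of RANK. Cd40-/- Control and Cd40-/- RANKL-Ab mice lacked the receptor CD40 and received the same agents, so that the 4 libraries ask what RANK and CD40 signalling do to the TECs, separately and together. Each library pooled the cells of 3 mice and there was 1 library per condition, so no difference between conditions has a replicate check and no test was made. The wild-type mice were female, and the sex of the Cd40-/- mice was not given in the sources used here.

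IL-7 and stem cell factor (the product of Kitl) keep early thymocytes alive and dividing, and the cortical epithelium is their best known source in the thymus. IL-15 is held on the cell surface by its own receptor chain, IL-15Rα, and handed to neighbouring cells, a step known from the development of NK and invariant T cells. TSLP signals through its own receptor together with the IL-7 receptor chain, FLT3 ligand acts on early haematopoietic progenitors and dendritic cell precursors, and TGF-β is secreted in a latent form and takes part in the formation of regulatory and innate-like T cells. RANK and CD40 are receptors of the TNF receptor family that signal through NF-κB and are known for driving the maturation of Aire+ mTECs, the medullary cells that display tissue antigens.

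The filters left 28055 cells, from 2082 in Cd40-/- RANKL-Ab to 10218 in WT-Control, with medians of 6086 to 7621.5 UMIs per cell. Cells were put into classes by gates on marker genes, with no member among the markers. Where 4 values follow each other, they stand for WT-Control, then WT-RANKL-Ab, then the Cd40-/- mice given control IgG and last those given the antibody; where 3 ratios follow, WT-Control is their reference and the manipulated libraries keep this order. There were 215, 563, 771 and 369 cTEC-gated cells, 3549, 3725, 2105 and 1037 CCL21+ mTEC-gated cells, and 127, 479, 268 and 205 progenitor-gated cells. Aire+ mTEC-gated cells numbered 2907, 245, 1684 and 4, and cycling TA-TEC-gated cells 480, 99, 523 and 6, so no ratio is read for either class in Cd40-/- RANKL-Ab. Tuft-gated cells numbered 403, 588, 241 and 59. Of all kept cells, 15.5% passed no gate and 18.8% passed more than 1. Cd40, the deleted gene, had 110, 28.8, 5.75 and 4.75 UMIs per 1000000 (CPM) over all cells of the same 4 libraries, with both wild-type libraries above both Cd40-/- libraries. The Cd40-/- libraries shared 205 cell barcodes (9.85% of the smaller library, against 0.817% to 1.42% for the other pairs). In Cd40-/- RANKL-Ab those barcodes had a median of 24073 UMIs and carried 26.8% of all UMIs, against a median of 723 and 0.46% in the control library, and the ratios over all cells are given below without them too where they left the counting interval.

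Levels below are CPM, the UMIs of a gene per 1000000 UMIs of all cells of a class, with exact 95% Poisson intervals in brackets. Ratios are log2 ratios of CPM with exact 95% intervals. These intervals cover counting error only, not the spread between mice or between cells. They treat every UMI as independent, and are too narrow where few cells hold many UMIs of a gene, as for Tslp below. The reads come from the 3′ end, and levels are compared between classes and libraries for 1 gene at a time.

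Il7 of WT-Control was highest in cTEC-, CCL21+ mTEC- and progenitor-gated cells. In cTEC-gated cells its levels were 212 (192 to 233), 300 (284 to 316), 267 (253 to 282) and 329 (311 to 348). In CCL21+ mTEC-gated cells they were 199 (193 to 204), 319 (312 to 326), 256 (248 to 265) and 316 (304 to 328). The CCL21+ class therefore carried Il7 in each library, at a level whose interval overlapped that of the cTEC class, and it contributed 58.6%, 69.99%, 42.9% and 56.3% of the Il7 UMIs of the 4 libraries. Progenitor-gated cells stood at 191, 178, 244 and 196. TA-TEC-gated cells had 66.2, Aire+ mTEC-gated cells 42.7 and tuft-gated cells 21.2 in WT-Control, all below the lowest of the 3 high classes. In WT-RANKL-Ab this order was different, with TA-TEC-gated cells at 224 (194 to 257) and Aire+ mTEC-gated cells at 210 (191 to 232), above the 178 (164 to 194) of progenitor-gated cells but with intervals that overlap it. After each cell was thinned to 1000 UMIs, 17.6% of cTEC-gated and 17.2% of CCL21+ mTEC-gated cells of WT-Control had an Il7 UMI, against 1.89% of T cell-gated cells (47.9%, 58.2% and 19.8% unthinned, at medians of 6267, 6215 and 7844 UMIs). Thinning left out 28, 150 and 10 shallower cells of these classes.

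Within the CCL21+ class Il7 was higher in all 3 manipulated libraries. The log2 ratios were 0.68 (0.63 to 0.73), 0.37 (0.30 to 0.43) and 0.67 (0.60 to 0.73). The medians over all genes tested in the class were 0.11, 0.12 and 0.06, so the differences of Il7 stood above the general shift. In cTEC-gated cells the ratios were 0.50 (0.34 to 0.66), 0.33 (0.17 to 0.50) and 0.64 (0.47 to 0.80). Those cTEC values depended on how cells were assigned: among cells that passed 1 gate alone they were 0.05, 0.16 and 0.24, and where cells went to the class with the nearest whole profile they were 0.17, 0.04 and 0.30, with a WT-Control level of 261. In progenitor-gated cells Cd40-/- Control was higher (0.36, 0.09 to 0.62), and in the antibody libraries no difference was detectable at this depth (−0.10, −0.34 to 0.16, and 0.04, −0.23 to 0.31). The 245 Aire+ mTEC-gated cells that remained in WT-RANKL-Ab had 210 CPM of Il7 against 42.7 in WT-Control, a log2 ratio of 2.30 (2.14 to 2.46), while Cd40-/- Control had 37.1. Ccl21a, a CCL21+ mTEC marker, was also higher there (1669 against 733 CPM), and in the 105 of those cells with under 5 Ccl21a UMIs per 10000, a subset chosen after its values were seen, Il7 was 125 against 38.0 in the matching WT-Control cells. The cTEC markers Psmb11 (106 against 20.2 CPM) and Prss16 (191 against 35.5) were higher in the WT-RANKL-Ab cells of this class too, and the part of these markers in the Il7 value was not tested. In the 32 of those cells without an Aire UMI, Il7 was 30.5 (8.32 to 78.2), against 43.3 (32.7 to 56.3) in 156 such cells of WT-Control.

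**Figure D1:**
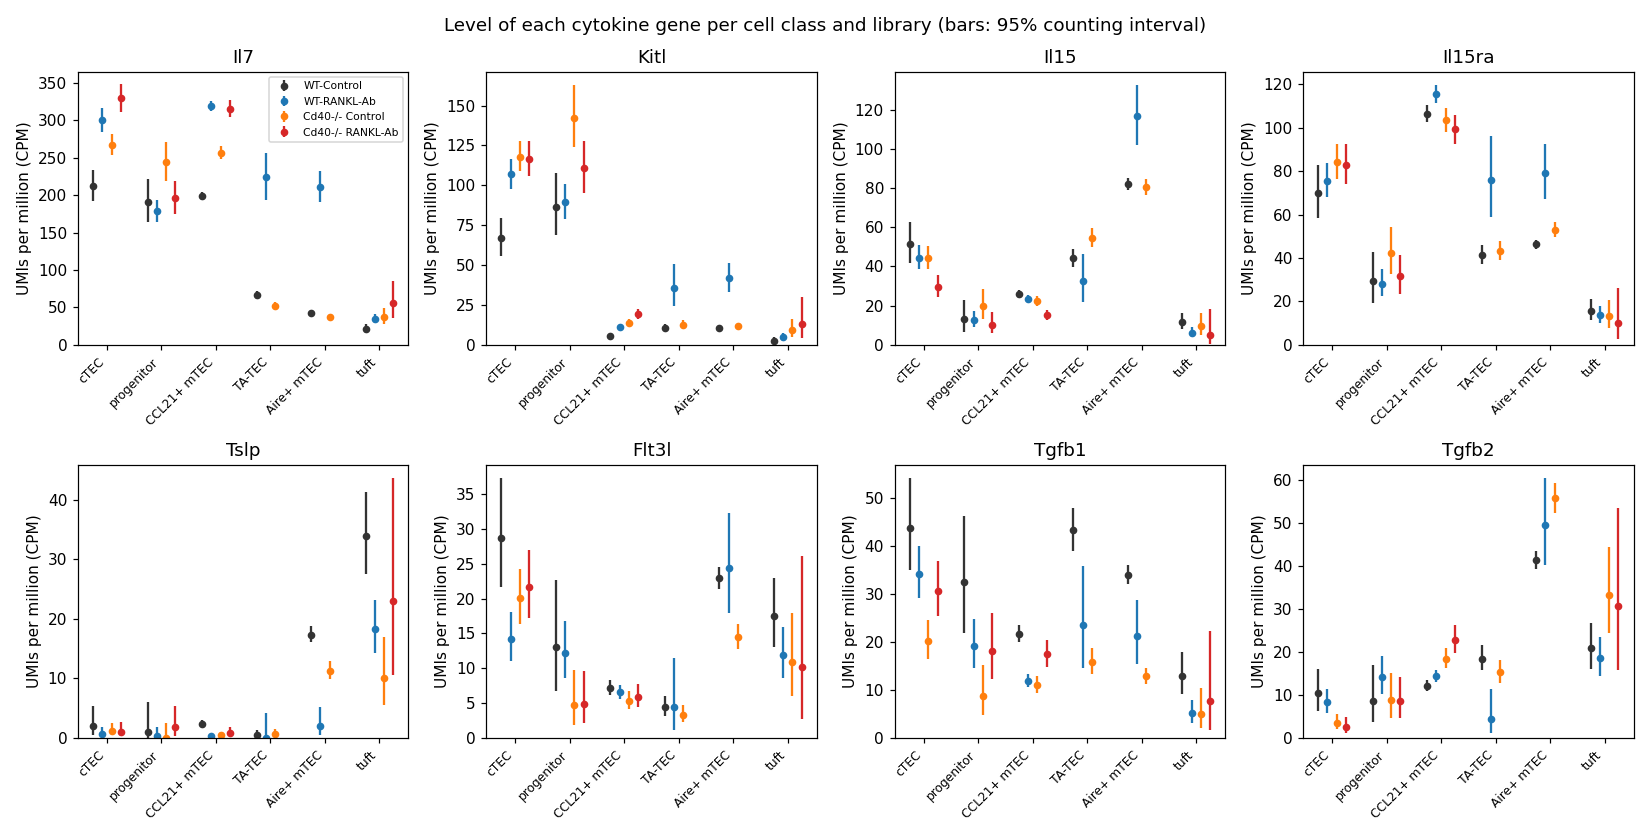
Level of each of the 8 genes in UMIs per 1000000 (CPM, linear axis from 0) in 6 cell classes, with 1 point per library and bars for the exact 95% counting interval; classes with fewer than 50 cells in a library are not drawn. Il7 is high in the cTEC, progenitor and CCL21+ mTEC classes, and in WT-RANKL-Ab also in TA-TEC and Aire+ mTEC. Kitl is high in cTEC and progenitor, Il15 and Tgfb2 in Aire+ mTEC, and Tslp in tuft and, in the control libraries, Aire+ mTEC.

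The level of Kitl was highest in progenitor- and cTEC-gated cells. Progenitor-gated cells had 86.6 (68.7 to 108), 89.4 (79.1 to 101), 142 (124 to 163) and 111 (95.2 to 128) CPM. In cTEC-gated cells the levels were 66.8 (55.7 to 79.4), 107 (97.7 to 117), 118 (109 to 128) and 116 (106 to 128). The intervals of these 2 classes overlapped in WT-Control, and the next class in the order, keratinocyte-gated cells at 11.01 (4.43 to 22.7), was separated from them. CCL21+ mTEC-gated cells had only 5.68 (4.8 to 6.67), 11.2 (9.95 to 12.6), 13.9 (12.0 to 16.1) and 19.3 (16.5 to 22.4). T cell-gated cells had 8.76 (4.003 to 16.6), 3.49, 9.62 and 3.18, from 3 to 16 UMIs, so that the CCL21+ level of WT-Control lay within their interval there, in a class that held epithelial RNA in that library, as given below for Il15. By UMIs, cTEC-gated cells held 12.3%, 33.4%, 30.0% and 40.9% of the Kitl of the 4 libraries, and Aire+ mTEC-gated cells 37.4%, 5.45% and 10.2% in the first 3.

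All 3 manipulated libraries had more Kitl than WT-Control in cTEC-gated cells, with log2 ratios of 0.68 (0.40 to 0.97), 0.82 (0.54 to 1.11) and 0.80 (0.51 to 1.10). Prss16, a cTEC marker, was lowest in WT-Control in the same class (4155, 7236, 6659 and 6588 CPM), where Aire was highest (93.4, 15.97, 27.6 and 1.85), and their part in the Kitl and Il7 values of cTEC-gated cells was not tested. Alternatives left these ratios positive, at 0.33 at the lowest in WT-RANKL-Ab and 0.45 in Cd40-/- RANKL-Ab. Among CCL21+ mTEC-gated cells the ratios were 0.98 (0.69 to 1.28), 1.29 (0.97 to 1.61) and 1.76 (1.44 to 2.09), and between the Cd40-/- libraries the one with antibody stood higher by 0.47 (0.16 to 0.78). The summed cTEC markers in the CCL21+ class were 2979, 4261, 3812 and 4763 CPM, with all 6 of 6 markers detected, and their part in the Kitl values was not tested. In progenitor-gated cells Kitl was higher in Cd40-/- Control (0.72, 0.34 to 1.11) but the interval held 0 in WT-RANKL-Ab (0.05, −0.32 to 0.42). Remaining Aire+ mTEC-gated cells of WT-RANKL-Ab again stood out, with 41.6 (33.1 to 51.6) against 10.7 (9.66 to 11.8) in WT-Control and 11.5 in Cd40-/- Control. The cTEC markers that were higher in those cells are given above for Il7, and their part in the Kitl value was not tested.

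Detection of Il7 and Kitl in the same cell was counted after thinning to 3000 UMIs. In cTEC-gated cells 8 of 140, 53 of 416, 86 of 507 and 40 of 288 cells had UMIs of both, where independent detection would give 8.57, 59.7, 81.4 and 40.1. The counts of CCL21+ mTEC-gated cells were 10 of 3036, 46 of 3255, 36 of 1702 and 34 of 943, where it would give 15.1, 47.7, 30.02 and 26.99. Those of Aire+ mTEC-gated cells were 5 of 2722, 4 of 173 and 10 of 1568, where it would give 6.85, 3.24 and 5.79. They lay on both sides of the independent values in each class, and no test was made.

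**Figure D2:**
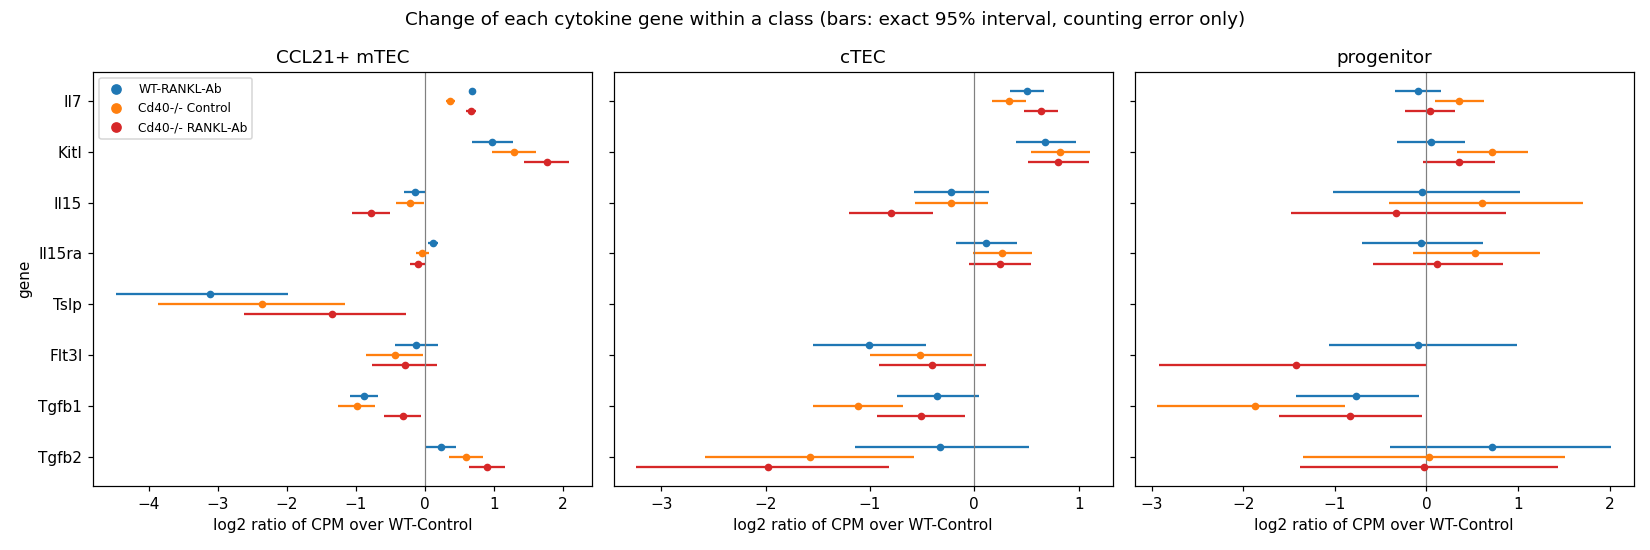
Log2 ratio of CPM over WT-Control for each gene in CCL21+ mTEC-, cTEC- and progenitor-gated cells, with 1 point per manipulated library and bars for the exact 95% counting interval; genes with fewer than 20 UMIs in both libraries together are left out. Il7 and Kitl lie right of 0 in the CCL21+ mTEC and cTEC panels, Tgfb1 lies left of 0 in every panel, and Tgfb2 lies right of 0 in CCL21+ mTEC and left of it in cTEC.

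Il15 had its highest level in Aire+ mTEC-gated cells, at 81.9 (79.0 to 84.9) in WT-Control, 117 (102 to 133) in WT-RANKL-Ab and 80.4 (76.3 to 84.6) in Cd40-/- Control. These cells gave 61.1% of the Il15 UMIs of WT-Control and 45.5% of those of Cd40-/- Control. Levels in cTEC-gated cells were 51.7 (42.0 to 62.9), 44.3 (38.5 to 50.7), 44.3 (38.8 to 50.5) and 29.6 (24.4 to 35.6), and in CCL21+ mTEC-gated cells 26.0 (24.1 to 28.0), 23.6 (21.8 to 25.6), 22.4 (19.9 to 25.1) and 15.1 (12.7 to 18.0). Both classes were thus lowest in Cd40-/- RANKL-Ab, with log2 ratios over WT-Control of −0.80 (−1.21 to −0.40) and −0.78 (−1.06 to −0.51). Neither WT-RANKL-Ab nor Cd40-/- Control had an interval clear of 0 in cTEC-gated cells (both −0.22, −0.57 to 0.14). In the CCL21+ class the corresponding values were −0.14 (−0.30 to 0.02) and −0.21 (−0.42 to −0.01).

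Aire, the marker of the class with most Il15, was lowest in the same library: it was at 38.3, 8.53, 24.8 and 0.693 CPM in the CCL21+ class and 93.4, 15.97, 27.6 and 1.85 in the cTEC class, and its part in the Il15 values was not tested. Among cells that passed 1 gate alone, the Il15 ratio of Cd40-/- RANKL-Ab over WT-Control was −0.70 in CCL21+ mTEC-gated and −0.68 in cTEC-gated cells, close to the values over all gated cells. T cell-gated cells of WT-Control also held 47.7 CPM of Il15, as much as the cTEC class within the intervals (35.3 to 63.0). That class was not free of epithelial RNA in WT-Control, with 441 CPM of Aire and 428 of Epcam, against 8.73 and 171 in WT-RANKL-Ab, where its Il15 level was 21.8.

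Il15ra, the chain that presents IL-15, was spread over the classes and differed little between libraries in its main class. CCL21+ mTEC-gated cells had 106 (102 to 110), 116 (112 to 120), 104 (98.1 to 109) and 99.2 (92.7 to 106) CPM, and cTEC-gated cells 69.9 (58.6 to 82.8), 75.6 (67.9 to 83.9), 84.0 (76.3 to 92.3) and 82.8 (73.9 to 92.5). The 3 ratios in the CCL21+ class were 0.12 (0.05 to 0.20), −0.04 (−0.13 to 0.05) and −0.10 (−0.21 to 0.01), with every bound well inside 2-fold. Aire+ mTEC-gated cells had 46.2 (44.1 to 48.5) in WT-Control, 79.1 (67.2 to 92.5) in WT-RANKL-Ab and 53.1 (49.7 to 56.6) in Cd40-/- Control. The order of the classes thus differed between the cytokine and its receptor chain: in WT-Control, Aire+ mTEC-gated cells led for Il15 and stood below both CCL21+ mTEC- and cTEC-gated cells for Il15ra, which CCL21+ mTEC-gated cells led. Detection of both in the same cell was counted after thinning. Within Aire+ mTEC-gated cells of WT-Control, 89 of 2722 cells thinned to 3000 UMIs had UMIs of both, where independence would give 65.8, and the counts were 11 of 173 against 7.86 in WT-RANKL-Ab and 50 of 1568 against 44.7 in Cd40-/- Control. CCL21+ mTEC-gated cells had 50 of 3036, 62 of 3255, 34 of 1702 and 13 of 943, against 55.1, 57.3, 26.7 and 10.9.

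Tslp, the gene of the epithelial cytokine TSLP, had most of its UMIs in few cells. WT-Control held 1156 Tslp UMIs in 244 cells, and 35 of these cells, each with 5 or more, held 860 of the UMIs (74.4%), with up to 92 in 1 cell. Cd40-/- Control had 8 such cells with 188 of its 295 Tslp UMIs, WT-RANKL-Ab had 3 with 16 of 97, and Cd40-/- RANKL-Ab had none among 21 Tslp+ cells with 25 UMIs. The limit of 5 UMIs was chosen after the values were seen. Of the 35 cells, 18 were Aire+ mTEC-gated, 11 passed no gate, 3 were tuft-gated, 2 microfold-gated and 1 CCL21+ mTEC-gated, and 27 of 35 had an Aire UMI. Their median depth, 11292.5 UMIs in the Aire+ class, was near the 11819 of all cells of that class.

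**Figure D3:**
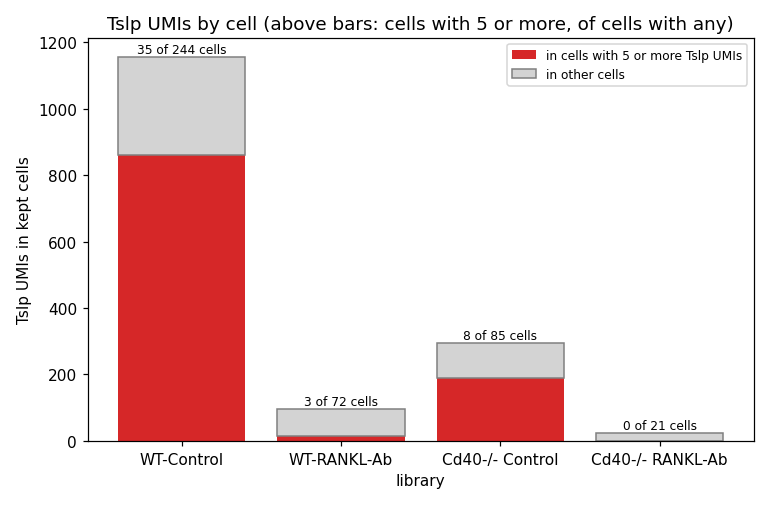
Tslp UMIs in all kept cells of each library (linear axis from 0), split into UMIs in cells with 5 or more Tslp UMIs (red) and in other cells (grey), with the number of such cells over the number of cells with any Tslp UMI above each bar. In WT-Control 35 of 244 cells hold 860 of 1156 UMIs, and the number is 3 of 72, 8 of 85 and 0 of 21 in the other libraries.

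Aire+ mTEC-gated cells had 17.4 (16.1 to 18.8) CPM in WT-Control, 2.03 (0.553 to 5.19) in WT-RANKL-Ab and 11.3 (9.83 to 13.01) in Cd40-/- Control. Without the cells of 5 or more UMIs those levels were 2.45 (1.97 to 3.02), 2.03 (0.553 to 5.19) and 1.46 (0.953 to 2.14), whose intervals overlap. The log2 ratio of Cd40-/- Control over WT-Control, −0.62 (−0.85 to −0.39), turned to 0.49 when every gate limit was 2 times as high. Tuft-gated cells carried Tslp in a broader way: 33.9 (27.5 to 41.2), 18.4 (14.3 to 23.3), 10.1 (5.55 to 17.02) and 23.0 (10.5 to 43.7) CPM, and 27.6, 15.7, 10.1 and 23.0 without the cells of 5 or more UMIs. Both WT-RANKL-Ab (−0.88, −1.35 to −0.42) and Cd40-/- Control (−1.74, −2.66 to −0.93) were thus below WT-Control in the tuft class, and the interval of Cd40-/- RANKL-Ab (−0.56, −1.73 to 0.42), with 9 UMIs in 59 cells, held 0. Levels in CCL21+ mTEC-gated cells, 2.34, 0.271, 0.456 and 0.924, lay under or within the intervals of T cell-gated cells (4.86, 0.873, 0.601 and 0, from at most 5 UMIs). In WT-Control the T cell-gated class held epithelial RNA, as given above for Il15. Without the cells of 5 or more UMIs the CCL21+ levels were 1.80 (1.33 to 2.40), 0.271 (0.109 to 0.559), 0.456 (0.167 to 0.992) and 0.924 (0.399 to 1.82).

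Flt3l, the FLT3 ligand gene, had no large class that stood clear of the others. It shares 6444 bases of 1 strand with another annotated protein-coding gene, Gm45713, and its counts are uncertain where shared reads could be split or dropped. In Aire+ mTEC-gated cells it stood at 22.9 (21.4 to 24.5), 24.3 (17.9 to 32.3) and 14.5 (12.8 to 16.4) in the first 3 libraries, so that Cd40-/- Control stood below WT-Control at a log2 ratio of −0.66 (−0.86 to −0.45), and between −0.78 and −0.61 under the alternatives. In cTEC-gated cells it was at 28.7 (21.6 to 37.4), 14.3 (11.1 to 18.1), 20.03 (16.4 to 24.3) and 21.7 (17.3 to 26.9). The cTEC difference of WT-RANKL-Ab, −1.01 (−1.54 to −0.47), shrank to −0.30 among cells that passed 1 gate, and that of Cd40-/- Control, −0.52 (−1.004 to −0.02), turned to 0.09 there and to 0.08 with whole-profile assignment. CCL21+ mTEC-gated cells had 5.32 to 7.17. The highest levels of WT-Control were in 61 neuroendocrine-gated cells (48.9, 28.5 to 78.3) and 63 ciliated-gated cells (38.7, 26.3 to 54.9), whose intervals overlap each other and those of cTEC-gated cells.

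Tgfb1 was lower in Cd40-/- Control than in WT-Control in each of the 6 classes compared. In CCL21+ mTEC-gated cells its levels were 21.8 (20.03 to 23.7), 11.9 (10.6 to 13.3), 11.01 (9.29 to 12.96) and 17.4 (14.8 to 20.5). In cTEC-gated cells it was 43.8 (35.0 to 54.3), 34.3 (29.2 to 39.99), 20.2 (16.5 to 24.5) and 30.7 (25.4 to 36.8). In progenitor-gated cells it was 32.5 (21.9 to 46.4), 19.1 (14.5 to 24.7), 8.86 (4.72 to 15.1) and 18.2 (12.3 to 26.0). WT-Control was the highest and Cd40-/- Control the lowest of the 4 libraries in all 3 classes. Aire+ mTEC-gated cells had 34.0, 21.3 and 12.9 in the first 3 libraries, TA-TEC-gated cells 43.3, 23.5 and 15.9, and tuft-gated cells 13.003, 5.13 and 5.07.

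The log2 ratios of Cd40-/- Control over WT-Control were −0.98 (−1.26 to −0.72) in CCL21+ mTEC-, −1.12 (−1.54 to −0.68) in cTEC-, −1.87 (−2.94 to −0.89) in progenitor-, −1.40 (−1.61 to −1.19) in Aire+ mTEC-, −1.45 (−1.74 to −1.16) in TA-TEC- and −1.36 (−2.77 to −0.18) in tuft-gated cells. No alternative brought any of these above −0.71, the value of cTEC-gated cells at its weakest. T cell-gated cells had 78.8, 66.4, 21.7 and 61.4 CPM, so Cd40-/- Control was lowest there as well. The summed T cell markers of cTEC-gated cells were 68, 68, 72 and 64 CPM, near each other in the 4 libraries. Relative to Cd40-/- Control, Cd40-/- RANKL-Ab had more Tgfb1 in CCL21+ mTEC-gated cells (0.66, 0.32 to 1.00), in cTEC-gated cells (0.60, 0.21 to 1.00) and in progenitor-gated cells (1.04, 0.06 to 2.10), while WT-RANKL-Ab had less than WT-Control in the first and the last of these (−0.88, −1.08 to −0.67, and −0.76, −1.42 to −0.08).

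Tgfb2, the second TGF-β gene, had another distribution. Aire+ mTEC-gated cells had 41.5 (39.4 to 43.6), 49.7 (40.3 to 60.5) and 55.8 (52.4 to 59.4) CPM in the first 3 libraries, and microfold-gated cells 53.5 (43.4 to 65.3) in WT-Control. In CCL21+ mTEC-gated cells the levels were 12.2 (10.9 to 13.6), 14.4 (12.96 to 15.9), 18.5 (16.2 to 20.9) and 22.9 (19.8 to 26.3), with log2 ratios of 0.24 (0.02 to 0.46), 0.60 (0.35 to 0.84) and 0.91 (0.64 to 1.17). The ratio of Cd40-/- RANKL-Ab was larger, 1.24, with whole-profile assignment. Tgfb1 and Tgfb2 were therefore on opposite sides of WT-Control in this class in each manipulated library. In cTEC-gated cells Tgfb2 was low throughout, at 10.4 (6.37 to 16.1), 8.30 (5.90 to 11.3), 3.50 (2.07 to 5.53) and 2.65 (1.27 to 4.86), from 10 to 39 UMIs, and T cell-gated cells of WT-Control, with the epithelial RNA given above, had 16.5 (9.63 to 26.5). Its cTEC ratios of −1.58 and −1.98 in the Cd40-/- libraries became −0.62 and −0.17 with whole-profile assignment, and Aire was lower in the same cells, as given above.

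The stretches just before the start sites of the 2 TGF-β genes are shown because the genes differed in direction in CCL21+ mTEC-gated cells of the same libraries. They are the 250 bases before each start, 5′ to 3′, from RefSeq on GRCm38.p6, at chr7:25686752-25687001 on the plus strand for Tgfb1 and chr1:186705990-186706239 on the minus strand for Tgfb2. Capitals mark a match to the κB consensus, the motif bound by NF-κB, which was searched on both strands and occurs in 7.25% of 32817 RefSeq promoter windows. Tgfb1 had 1 match, 140 bases before its start, and Tgfb2 had none in this window. Kitl, which was on the other side of WT-Control from Tgfb1 in CCL21+ mTEC-gated cells, had 1 match too, 152 bases before its RefSeq start. The Kitl window runs from 100015571 to 100015820 on chromosome 10. The Kitl gene span given below has an earlier start, 100015630, so this match lies inside that span. Neither Flt3l nor any Il15ra window had a κB match.
Tgfb1: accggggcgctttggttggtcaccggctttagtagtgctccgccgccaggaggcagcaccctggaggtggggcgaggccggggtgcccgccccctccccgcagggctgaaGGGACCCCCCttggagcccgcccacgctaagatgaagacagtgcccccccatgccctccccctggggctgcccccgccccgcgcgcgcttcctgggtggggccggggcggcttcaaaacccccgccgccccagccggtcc
Tgfb2: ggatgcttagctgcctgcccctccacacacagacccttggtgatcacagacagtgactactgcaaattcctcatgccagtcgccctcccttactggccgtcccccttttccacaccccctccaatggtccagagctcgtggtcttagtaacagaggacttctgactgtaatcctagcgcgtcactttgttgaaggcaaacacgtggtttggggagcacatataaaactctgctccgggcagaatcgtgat
A match or its absence describes letters only. The other motifs searched were TGACTCA, the AP-1 site (in 4.46% of all windows), and GAAA followed 2 bases later by GAAA. The latter is a core of interferon response elements (2.97%). Neither occurred in the Tgfb1 and Tgfb2 stretches on either strand. Il15ra had 1 TGACTCA match, 30 bases before a RefSeq start that lies inside its gene span. Flt3l had 1 match to the GAAA pair, 10 bases before its start. On GRCm38 the Tgfb1 gene spans 25687002 to 25705077 on chromosome 7 and Tgfb2 186622792 to 186705989 on chromosome 1. Il7 lies on chromosome 3 (7569994 to 7613760), Kitl on chromosome 10 (100015630 to 100100416), Il15ra on chromosome 2 (11705290 to 11734317), Il15 on chromosome 8 (82331632 to 82403222) and Flt3l on chromosome 7 (45129788 to 45136432).

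Counted over the 8 genes, differences of 2-fold or more within a class were few, and were read against the share of all genes tested (20 UMIs or more in both libraries together) that were as far apart in the same comparison. In CCL21+ mTEC-gated cells Tslp alone was past 2-fold, downwards, in WT-RANKL-Ab (12.8% of all genes), Kitl upwards and Tslp downwards in Cd40-/- Control (12.1%) and again in Cd40-/- RANKL-Ab (21.1%), and no member between the Cd40-/- libraries (13.9%). Of 7 genes tested in cTEC-gated cells, Flt3l was lower in WT-RANKL-Ab (15.8% of all genes), Tgfb1 and Tgfb2 were lower in Cd40-/- Control (23.6%) and Tgfb2 was lower in Cd40-/- RANKL-Ab (19.3%), with none between the Cd40-/- libraries (7.34%). Among progenitor-gated cells no member was past 2-fold in WT-RANKL-Ab (7.29%), Tgfb1 was lower in Cd40-/- Control (14.5%), Flt3l was lower in Cd40-/- RANKL-Ab (8.39%), and Tgfb1 was higher in Cd40-/- RANKL-Ab than in Cd40-/- Control (6.88%). In Aire+ mTEC-gated cells 3 of 8 were past 2-fold in WT-RANKL-Ab, Il7 and Kitl upwards and Tslp downwards, where 30.5% of all genes were, and Tgfb1 alone was past it without CD40 (9.74%). Tuft-gated cells had Tgfb1 lower in WT-RANKL-Ab (8.01%), Kitl higher and Tslp and Tgfb1 lower in Cd40-/- Control (10.2%), and Il7 higher and Il15 lower in Cd40-/- RANKL-Ab (19%). That Il15 level, from 59 cells, was 5.11 (0.619 to 18.5) against 11.6 (8.06 to 16.3) CPM in WT-Control, with overlapping intervals. TA-TEC-gated cells had Il7 and Kitl higher and Tgfb2 lower in the 99 cells of WT-RANKL-Ab (27%), at 224 against 66.2, 35.8 against 10.7 and 4.47 against 18.5 CPM, and Tgfb1 lower in Cd40-/- Control (8.6%). Of the 99 cells of WT-RANKL-Ab, 73 had 20 or more Ccl21a UMIs per 10000, against 87 of 480 in WT-Control. In that subset Il7 was 224 (188 to 264) against 142 (123 to 163), and Kitl 17.6 (8.79 to 31.5) against 18.3 (12.0 to 26.9). In the other 26 cells Il7 was 223 (170 to 287) against 51.6 (46.6 to 57.1), and Kitl 78.0 (48.3 to 119) against 9.26 (7.19 to 11.7). The part of this makeup in the TA-TEC values was not tested. The members past 2-fold thus made up no more than 3 in any comparison, and Tgfb1 was among them in 5 of the 6 classes of Cd40-/- Control. The Tslp of CCL21+ mTEC-gated cells counted here, and the Kitl of their WT-Control reference, lay under or within the intervals of T cell-gated cells. That T cell-gated class held epithelial RNA in WT-Control, as given above for Il15.

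Over all cells of a library, the class makeup differed between the libraries as well as the level per class. Il7 stood at 92.8 (90.9 to 94.7), 242 (238 to 246), 119 (116 to 121) and 253 (246 to 261) CPM, where the class makeup alone, with every class held at its WT-Control level, would give 154, 98.0 and 168 in the last 3. Kitl stood at 10.9, 30.9, 30.5 and 56.2, against 20.1, 18.7 and 32.0 from makeup. Both genes were thus above what makeup gives in each manipulated library. Il15 stood at 51.3, 30.0, 47.7 and 18.5 against 30.7, 47.4 and 30.9, so that the measured and the makeup value were close in WT-RANKL-Ab and apart in Cd40-/- RANKL-Ab. Tgfb2, at 27.9, 15.7, 30.5 and 13.2 against 15.2, 24.1 and 11.9, was also close to makeup in the antibody libraries, and its small excess in Cd40-/- Control over WT-Control (log2 ratio 0.13) turned to −0.05 with TMM factors. Tgfb1 was apart from it: the levels were 29.8, 18.3, 13.9 and 26.0, against 27.7, 33.3 and 33.3. Tslp was at 12.1, 1.99, 4.45 and 1.31 against 6.87, 9.96 and 3.39, and Flt3l at 16.1, 10.96, 11.3 and 10.5 against 12.8, 16.1 and 14.4. Il15ra stayed within 59.4 and 83.2 in the 4 libraries. Without the 205 shared barcodes the log2 ratios of Cd40-/- RANKL-Ab over WT-Control were 1.60 for Il7, 2.17 for Kitl, 0.42 for Il15ra and −0.89 for Flt3l, in place of 1.45, 2.36, 0.27 and −0.61.

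**Figure D4:**
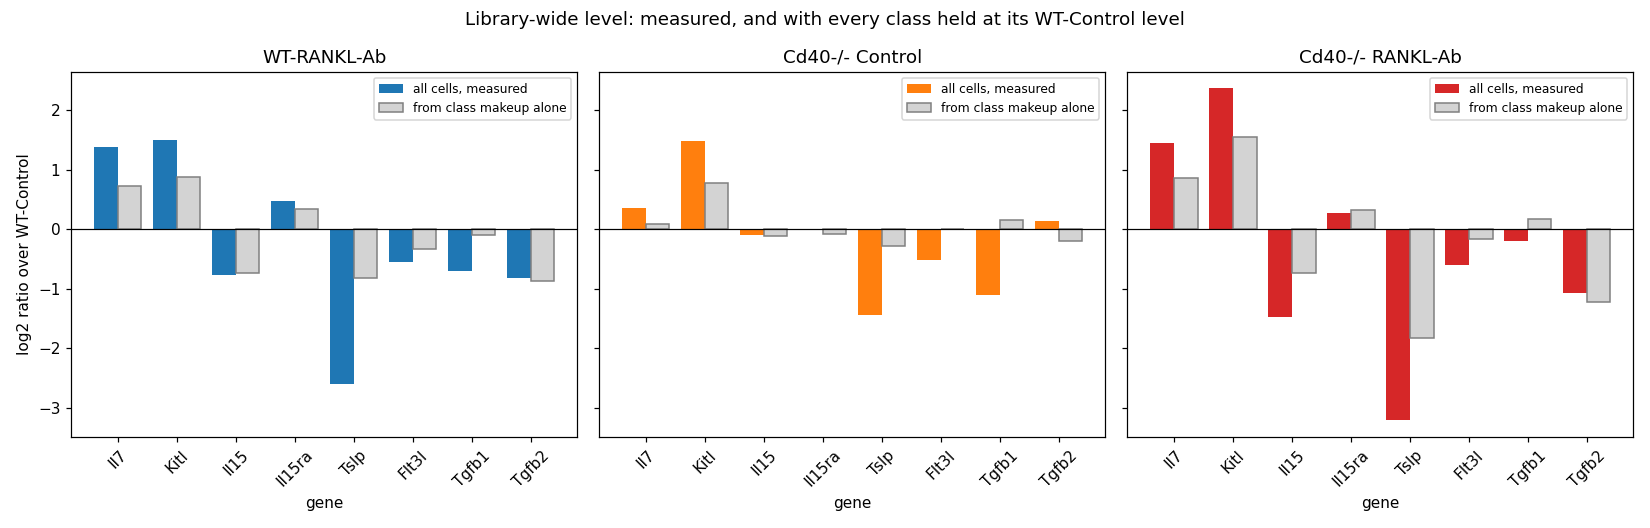
Log2 ratio of the level over all cells to WT-Control for each gene in the 3 manipulated libraries (linear axis, coloured bars), beside the ratio that the class makeup alone would give with every class held at its WT-Control level (grey bars). Il7 and Kitl exceed the grey bars in each library, Il15 and Tgfb2 of WT-RANKL-Ab lie beside them, and Tgfb1 of Cd40-/- Control is at −1.10 where makeup gives 0.16.

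The receptors that read these signals were mostly low in the epithelial classes. Of 10 receptor genes, 8 were tested in CCL21+ mTEC-gated cells, with 0 higher and 1 lower by 2-fold in the first manipulated library, 1 and 0 in the next, and 2 and 2 in the last. Of all genes tested in these comparisons 2.84% were higher and 9.94% lower by 2-fold, then 5.40% and 6.68%, and then 6.48% and 14.6%, and the counts of the lists below are read against the same shares. Tgfbr3, the TGF-β co-receptor betaglycan, was at 5.72, 8.84, 19.6 and 23.6 CPM in the 4 libraries, and Tgfbr2, the ligand-binding receptor, at 14.2, 18.8, 23.6 and 31.2. Both were lowest in WT-Control, like Tgfb2 in the same class. Il2rg, the chain shared by the IL-7 and IL-15 receptors, was at 8.32, 3.49, 8.58 and 1.501, and Crlf2, the TSLP receptor chain, at 26.7, 18.3, 16.9 and 25.6. Il7r was near 0 in these cells (1.15 to 2.81) and at 8.76 to 13.8 in T cell-gated cells. Kit, the receptor of stem cell factor, was highest in tuft-gated cells, at 92.4, 67.7, 125 and 79.2, where Kitl itself was at 2.40 to 12.8.

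Among 17 genes of TGF-β activation and readout, all tested in CCL21+ mTEC-gated cells, the same counts were 0 and 1, 1 and 0, and 3 and 2, with medians of −0.03, 0.38 and 0.34 beside 0.11, 0.12 and 0.06 over all genes. The highest and lowest ratios that follow are those among genes of the list with at least 50 UMIs in both libraries compared. Ltbp4, which binds latent TGF-β in the matrix, had the highest ratio of these in Cd40-/- RANKL-Ab (102 against 25.4 CPM in WT-Control, log2 ratio 2.001, 1.85 to 2.15). Thbs1, which encodes thrombospondin 1, an activator of latent TGF-β, had it in Cd40-/- Control (20.7 against 3.76, log2 ratio 2.46, 2.13 to 2.81). Itgb8, a subunit of the integrin that releases active TGF-β, had the lowest ratio of the genes past this UMI limit in Cd40-/- RANKL-Ab (6.12 against 11.6, −0.93, −1.37 to −0.50).

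Of 21 other cytokine genes, 14 were tested in the CCL21+ class, with 1 higher and 4 lower by 2-fold, then 1 and 4, and then 0 and 7, and medians of −0.21, 0.21 and −0.92. Tnfsf10, which encodes TRAIL, was at 47.7, 33.4, 67.1 and 22.9 CPM, lowest in Cd40-/- RANKL-Ab as Il15 was. Of 10 regulators tested in the CCL21+ class, none was higher by 2-fold in any of the 3 libraries and 1, 0 and 2 were lower. Irf7, an interferon-induced factor, was at 336, 139, 191 and 10.5 CPM, lowest in the library where Il15 was lowest. Foxn1, the master factor of thymic epithelium, was at 33.1, 57.4, 32.1 and 54.6, higher in both antibody libraries. The part of these 2 factors in the values of the members was not tested. The 3 proteases that release membrane-bound ligands and process precursors are Adam10, Adam17 and Furin. All were tested in CCL21+ mTEC-gated cells, and none passed 2-fold there in any of the 4 comparisons.

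Genes with profiles most like each member were found among 16150 genes over 46 class-and-library profiles, by Pearson's r of log2(CPM + 5). These profiles share libraries, and classes differ in depth, so the r values are descriptions. Il7 was closest to Pgm5 (0.86), Lpar1 (0.86) and Wfikkn2 (0.85), and Kitl to Tns1 (0.87), Cxcl12 (0.87) and Klf15 (0.86). Il15 was closest to Mras (0.87), to Cxcl10, an interferon-induced chemokine (0.84), and to H2-Oa, an MHC class II-like chain (0.84). Il15ra was closest to Ccdc141 (0.87), Tslp to Folr1 (0.83), Flt3l to Suclg1 (0.83) and Tgfb1 to Eif3d (0.75). Tgfb2 was closest to Azin2 (0.87) and then to Itgb8 (0.86). Among the members themselves, Il7 and Il15ra were most alike (r = 0.75), followed by Il7 and Kitl (0.66), and Kitl and Tgfb2 were the most opposed (−0.43).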

How the data were processed

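TECs from 4 conditions, 1 library each, were profiled with a droplet-based 3′ kit (version 2 per the labels, 3.1 in the study's methods). The authors aligned reads to mm10 and counted UMIs with Cell Ranger (5.1 in the submitters' processing notes, 5.0.1 in the methods and file headers), and the deposited matrices hold these raw counts. No per-sample column was left unused. Kept cells had 200 genes or more, with mitochondrial UMIs making up no more than 25%. Totals per kept library ran from 19153685 to 95277834 UMIs, which sets the width of the counting intervals.

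Each cell was scored by the UMIs of each marker list per 10000 and put in the class whose score most exceeded its limit, with at least 2 markers detected. Members were not markers. The limits were set after the score distributions were seen, and that of CCL21+ mTECs was reset to 60 once all rows of a symbol were summed. The subset limits, the Tslp limit of 5 UMIs, the motifs and 2 alternatives (cells passing 1 gate, shared barcodes left out) were also chosen after the data were seen. No doublet caller was run; cells with cTEC and T cell markers were kept as a class of their own. The members and lists were chosen with earlier results of these data known. All members are named, and other genes of the fixed lists where they were the highest or lowest of their list with at least 50 UMIs in both libraries or a member's direct partner; some results of these lists are not reported here.

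Levels were CPM of summed counts with exact Poisson intervals, ratios had exact conditional binomial intervals, and cells for shares were thinned to 1000 UMIs. Alternatives were other filters, gates, totals and cell weights. A TMM scaling (edgeR 4.0.16, R 4.3.3) was an alternative. The interval code (Python 3.11.15, scipy 1.17.1) was tested on simulated Poisson counts for CCL21+ mTECs of WT-RANKL-Ab and WT-Control. Of the intervals over 15023 genes, 95.9% held the true ratio. The simulation had no spread between cells or mice, so it checks the code and not how well the intervals hold for these data.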

Additional observations from a re-analysis of the deposited data

Results flagged for a closer look

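For Tgfb1 the antibody was followed by opposite differences in the 2 genotypes. In progenitor-gated cells the log2 ratio of antibody to control was −0.76 in wild-type and 1.04 in Cd40-/- mice, a difference of 1.81. In CCL21+ mTEC-gated cells it was −0.88 and 0.66, a difference of 1.54, and over all cells −0.70 and 0.90, a difference of 1.61. With 1 library per condition the difference was not tested. Each ratio rests on the control library of its genotype, and Tgfb1 of Cd40-/- Control was the lowest of the 4 libraries in T cell-gated cells too, at 21.7 CPM.

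Barcodes that the filters removed, which no comparison used, also held UMIs of the members: 72 of Il7, 15 of Kitl, 22 of Il15, 69 of Il15ra, 6 of Flt3l, 9 of Tgfb1 and 16 of Tgfb2 over the 4 libraries, each above the 3 UMIs taken as the limit of a count of 0.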

How the results depend on the processing

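Of 198 log2 ratios, 112 had a counting interval that left out 0. Over 1090 values of these under the alternatives, 6 had the other sign and 132 kept their sign but fell outside the interval. A mitochondrial limit of 13%, a floor of 2000 UMIs per cell and totals without Ccl21a left every value inside its interval. No paired analysis was possible because each condition had 1 library, and no library could be left out for the same reason. Where a value below differs, the cause was not tested, apart from TMM, which shifts every ratio of a comparison by 1 amount, and thinning, which removes UMIs.

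With TMM factors, Il7 in CCL21+ mTECs was at 0.57, 0.20 and 0.57 in the 3 manipulated libraries, and Il15ra at 0.0033 and −0.20 in the first 2. Over all cells of Cd40-/- Control, Il7 was then at 0.17, Kitl at 1.30, Il15 at −0.29, Il15ra at −0.20, Flt3l at −0.70, Tgfb1 at −1.28 and Tgfb2 at −0.054, which reversed its sign.

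Among cells passing 1 gate (chosen after seeing the data), Il7 in CCL21+ mTECs was at 0.58, 0.26 and 0.56, and Tgfb2 of WT-RANKL-Ab at 0.51. Flt3l of cTECs reversed to 0.089 in Cd40-/- Control, from a WT-Control level of 19.5 CPM, and Il15ra of TA-TECs to −0.15 in WT-RANKL-Ab. Over all cells, WT-RANKL-Ab had Il7 at 1.31, Kitl at 1.37, Tgfb1 at −0.87 and Tgfb2 at −0.67, Cd40-/- Control had Il7 at 0.28, Tgfb1 at −1.22 and Tgfb2 at 0.41, and the last library Il7 at 1.38 and Kitl at 2.63.

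As a mean over cells, Tgfb2 of CCL21+ mTECs was at 0.47 in WT-RANKL-Ab, and Tgfb1 of TA-TECs reversed to 0.020. Over all cells, WT-RANKL-Ab had Il7 at 1.10, Kitl at 1.21, Il15 at −0.65, Il15ra at 0.34, Tgfb1 at −0.49 and Tgfb2 at −0.60, Cd40-/- Control had Il15ra at −0.10 and Tgfb2 at 0.32, and the last library Il7 at 1.28, Kitl at 2.18, Il15ra at 0.15 and Tgfb1 at −0.034. The Aire+ mTEC levels of WT-Control were 85.7 CPM for Il15 and 46.3 for Tgfb2.

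Over cells with no T cell UMI, all-cell ratios were −0.90 for Tgfb1 and −0.68 for Tgfb2 in WT-RANKL-Ab, −0.0042 for Il15 and 0.062 for Il15ra in Cd40-/- Control, and −0.40 and −0.75 for Tgfb1 and Tgfb2 in the last library, with Tgfb2 of Aire+ mTECs at 43.9 CPM in WT-Control. Without T cell-gated and double-gated cells, WT-RANKL-Ab had Il7 at 1.46, Il15ra at 0.55 and Tgfb1 at −0.91, Cd40-/- Control had Kitl at 1.33, Il15 at −0.040 and Tgfb2 at 0.26, and the last library Il7 at 1.65, Il15ra at 0.44, Tgfb1 at −0.43 and Tgfb2 at −0.81. Without the shared barcodes (chosen after seeing the data), the last library had Il7 at 1.60, Kitl at 2.17, Il15ra at 0.42 and Flt3l at −0.89.

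With whole-profile assignment, Flt3l of cTECs reversed to 0.076 in Cd40-/- Control, Il7 of CCL21+ mTECs was at 0.63 and 0.59 in the antibody libraries and Tgfb2 at 1.24 in Cd40-/- RANKL-Ab. WT-Control levels were 261 CPM for Il7 and 18.8 for Flt3l in cTECs and 111 for Il15ra in CCL21+ mTECs. CCL21+ mTECs then gave 57.4% of Il7 and 47.1% of Il15ra UMIs, and Aire+ mTECs 63.4% of Il15, 78.7% of Tslp and 60.1% of Flt3l. With gate limits 2 times as high, Tslp of Aire+ mTECs reversed to 0.49 in Cd40-/- Control and Il15 stood at 87.9 CPM in WT-Control.

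Shares of cells with a UMI depend on depth. From 1000 UMIs per cell to 3000 and then to all UMIs, WT-Control had 17.6%, 34.3% and 47.9% for Il7 in cTECs, 7.20%, 24.1% and 40.2% for Kitl in progenitors, 8.004%, 19.0% and 46.5% for Il15 in Aire+ mTECs, and 9.94%, 26.5% and 44.9% for Il15ra in CCL21+ mTECs. The same steps gave 2.83%, 7.49% and 13.4% for Tslp in tuft cells, 3.74%, 11.4% and 17.2% for Flt3l and 3.74%, 10.7% and 23.3% for Tgfb1 in cTECs, and 4.40%, 10.9% and 26.0% for Tgfb2 in Aire+ mTECs.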
